A study of Mus musculus with 6 samples.

Results

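Classical cadherins and non-clustered protocadherins are single-pass membrane proteins that hold cells together, and 35 of their genes were followed here in the embryonic mouse kidney. They are the genes of the deposited table, 35 of 24749 in all, whose symbol is Cdh with a number (23 genes) or is 1 of 12 named Pcdh genes outside the protocadherin clusters. RNA from whole dissected kidneys was sequenced at E15.5 (embryonic day) in a series on YAP, TAZ and pericyte differentiation. The 3 knockout libraries came from Foxd1cre; Yapc/c;Tazc/c kidneys, which carry a Cre recombinase driven by Foxd1 with floxed alleles of Yap1 (encoding YAP) and Wwtr1 (encoding TAZ). The 3 wild-type libraries came from Cre-negative kidneys, and the labels do not say whether these carried floxed alleles. The strain of both genotypes was mixed. Foxd1 marks the stromal progenitors of the kidney, so that the nephron and ureteric epithelium of a knockout kidney lie largely outside the lineage in which this Cre is known to act, as do nerves and most of the endothelium. The labels do not say whether the libraries of a genotype came from separate embryos, and p-values therefore cover only how these libraries vary, which may be technical. In bulk tissue, fewer cells of a type and less RNA per cell cannot be told apart.

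Type I cadherins (E-cadherin from Cdh1, N-cadherin from Cdh2, P-cadherin from Cdh3, R-cadherin from Cdh4) and type II cadherins (such as VE-cadherin from Cdh5, K-cadherin from Cdh6 and OB-cadherin from Cdh11) bind like molecules on the neighbouring cell in the presence of calcium, and their tails hold β-catenin and p120-catenin, which tie the junction to actin. Non-clustered protocadherins, mostly of the δ1 and δ2 classes, adhere weakly and carry other tails, of which those of the δ2 class bind the WAVE actin regulator. In the developing kidney the switch of mesenchyme into nephron epithelium is accompanied by an exchange of cadherins. The genes are ordered below by an assigned class of cells, a background grouping that was not measured here. The class is not always that of the cells for which a gene is best known. Cdh2, Cdh4 and Cdh6 are known in forming nephron epithelium as well as in their own class.

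Depth, approximated from the lowest steps of the values, was 12900000 to 15600000 fragments in knockout libraries and 12800000 to 14300000 in wild-type libraries, and 1 fragment on a transcript of 2 kb was worth 0.0321 to 0.039 FPKM (fragments per kilobase of transcript length, relative to the depth of the library). Wwtr1 had 13.5, 12.8 and 12.2 FPKM in knockout kidneys, against 20.2, 17.7 and 18.5 FPKM in wild-type kidneys, and fell (log2 change -0.51, limma with Benjamini-Hochberg adjusted p = 0.0235). Leaving out wild-type library 2, or any knockout library, ended that call (adjusted p up to 0.117), as did scaling to equal sums (0.0517). Yap1 had 48.7, 43.2 and 44.2 FPKM in knockout kidneys and 45.5, 52.7 and 55.0 FPKM in wild-type kidneys (log2 change -0.16, 95% interval -0.36 to 0.03, adjusted p = 0.378). The floxed exons are not named in the labels, so transcripts without them count toward these levels. Wild-type library 3 stood apart in markers of nerve and skeletal muscle, which bears on several neural cadherins and is taken up with them.

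Among the cadherins and protocadherins, Pcdh18 fell, and no other member was called. Pcdh18 encodes a δ2 protocadherin whose tail binds the adaptor Dab1 in the mouse. Its level was 18.2, 20.4 and 20.1 FPKM in knockout kidneys, against 30.7, 28.9 and 28.0 FPKM in wild-type kidneys. Every knockout library was lower than every wild-type library, and the gap between the groups was wider than the range within either. The means were 19.6 ± 1.19 FPKM in knockout kidneys and 29.2 ± 1.35 FPKM in wild-type kidneys (SD, n = 3 each), or 67.0% of wild type (log2 change -0.56, SE 0.06, limma adjusted p = 0.0121). The gene lies on the minus strand of chromosome 3 (chr3:49743296-49757325, GRCm38), has 5 annotated transcripts and overlaps no other gene model. Its call was lost without knockout library 3 (adjusted p = 0.0539) and without wild-type library 2 (adjusted p = 0.0694). Without wild-type library 3 it was kept (log2 change -0.58, adjusted p = 0.0254).

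The 250 bases before the annotated starts are printed for Pcdh18, for its neighbour in the family on chromosome 3, Pcdh10, and for Cdh10. These genes are among the 7 members with an unadjusted p under 0.05 in limma, and are printed because each holds 1 of the motifs searched. Of the rest of these 7, Cdh24 had a window with neither motif, and Cdh1, Cdh4 and Cdh11 had no window to search. The sequences are from RefSeq on GRCm38.p6, 5′ to 3′ on the strand of the gene, and the capitals mark GGAATG or its reverse complement CATTCC, the core bound by TEAD factors, through which YAP and TAZ reach DNA, or CCAAT or its reverse complement ATTGG, the box bound by NF-Y. Pcdh18 is at chr3:49757317-49757566 (minus strand), Pcdh10 at chr3:45378148-45378397 (plus strand) and Cdh10 at chr15:18820079-18820328 (plus strand), inside the longer span that GENCODE gives to Cdh10.
Pcdh18: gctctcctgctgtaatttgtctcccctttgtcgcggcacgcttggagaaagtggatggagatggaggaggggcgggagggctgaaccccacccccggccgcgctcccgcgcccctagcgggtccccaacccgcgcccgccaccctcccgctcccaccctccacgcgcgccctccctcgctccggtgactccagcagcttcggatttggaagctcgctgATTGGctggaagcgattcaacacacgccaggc
Pcdh10: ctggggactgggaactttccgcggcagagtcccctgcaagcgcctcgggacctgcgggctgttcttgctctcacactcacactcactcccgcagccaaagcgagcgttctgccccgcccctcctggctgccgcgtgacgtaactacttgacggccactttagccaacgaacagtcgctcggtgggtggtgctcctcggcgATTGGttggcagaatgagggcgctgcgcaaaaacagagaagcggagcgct
Cdh10: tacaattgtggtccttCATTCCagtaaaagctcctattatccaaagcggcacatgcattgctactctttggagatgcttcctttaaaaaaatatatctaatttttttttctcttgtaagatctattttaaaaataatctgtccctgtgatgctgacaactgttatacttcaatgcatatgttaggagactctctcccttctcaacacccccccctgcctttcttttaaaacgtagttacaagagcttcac
The box of Pcdh18 begins 32 bases before the start and that of Pcdh10 50 bases before it, and the TEAD core of Cdh10 begins 234 bases before it. The table holds a promoter for 22 of the 35 members, in 25 windows. GGAATG in either orientation occurred in 3 of these 25 windows (Cdh9, Cdh10 and Cdh20) and in 12.6% of all 32851 windows searched. CCAAT in either orientation occurred in 15 of the 25 windows and in 33.8% of all windows. Neither motif contains the other, though their ends can share letters. A match describes the letters of the window and shows no binding.

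**Figure D1:**
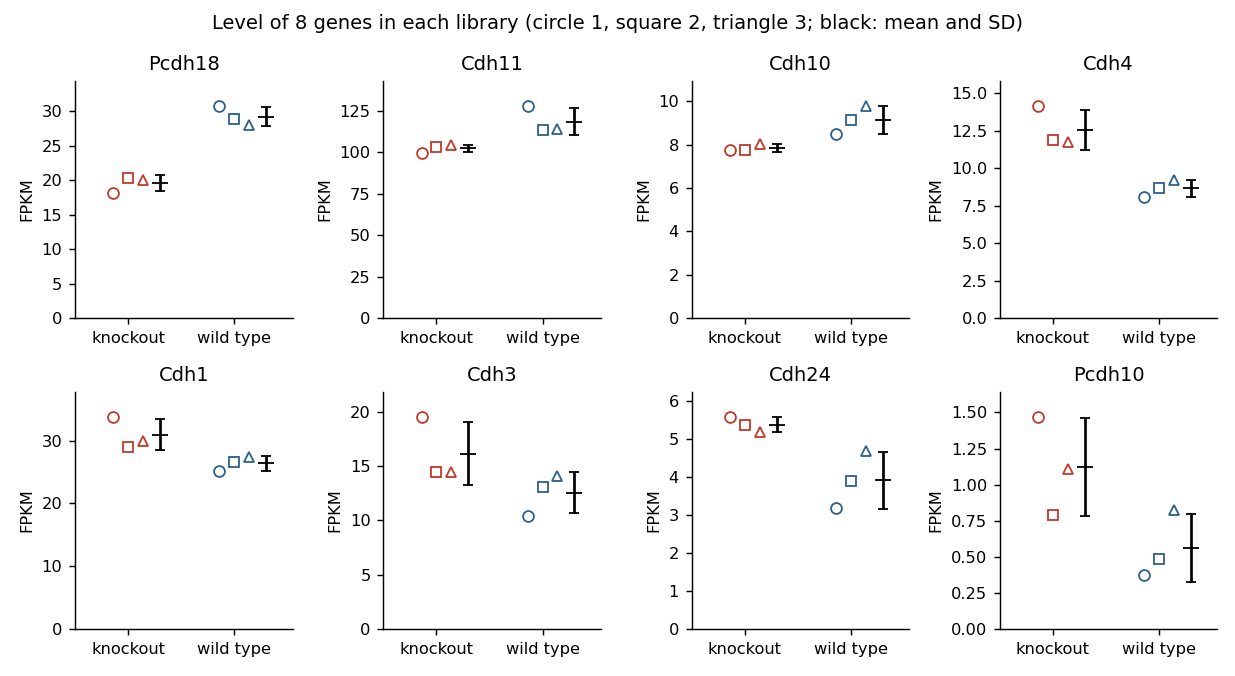
Level in FPKM (vertical axes, each starting at 0) of 8 genes in each knockout library (red) and wild-type library (blue), with the mean and SD of each genotype in black (n = 3). Pcdh18, Cdh11 and Cdh10 lay lower in all knockout libraries, Cdh4, Cdh1, Cdh3 and Cdh24 lay higher in all of them, and the lowest knockout value of Pcdh10 was inside the wild-type range.

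The family was read against the whole table. Of 16899 genes tested, 102 were called lower in knockout kidneys (0.604%) and 22 higher (0.13%) by limma at an adjusted p under 0.05, while of the 25 members tested 1 was called lower and 0 higher. At an unadjusted p under 0.05, 3 members lay lower, or 12% of those tested against 6.94% of all genes, and 4 lay higher, or 16% against 9.14% of all genes. The 3 knockout values were all below the 3 wild-type values for 3 members (12%, against 11.8% of all genes) and all above them for 5 members (20%, against 12.5% of all genes). The median log2 change was 0.03 over the tested members, 11 of them below 0 and 14 above, and -0.002 over all genes. Without wild-type library 1, 15 of the 25 members had no overlap in place of 8, or 60% against 33.0% of all genes in the same 5 libraries. With all 6 libraries the shares were 32% of members and 24.3% of all genes. Over all genes, the number called lower was 45 without wild-type library 2 and 53, 46 and 48 without knockout library 1, 2 and 3, and the number called higher was 51 without wild-type library 3 and between 7 and 13 when wild-type library 2 or any knockout library was left out.

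**Figure D2:**
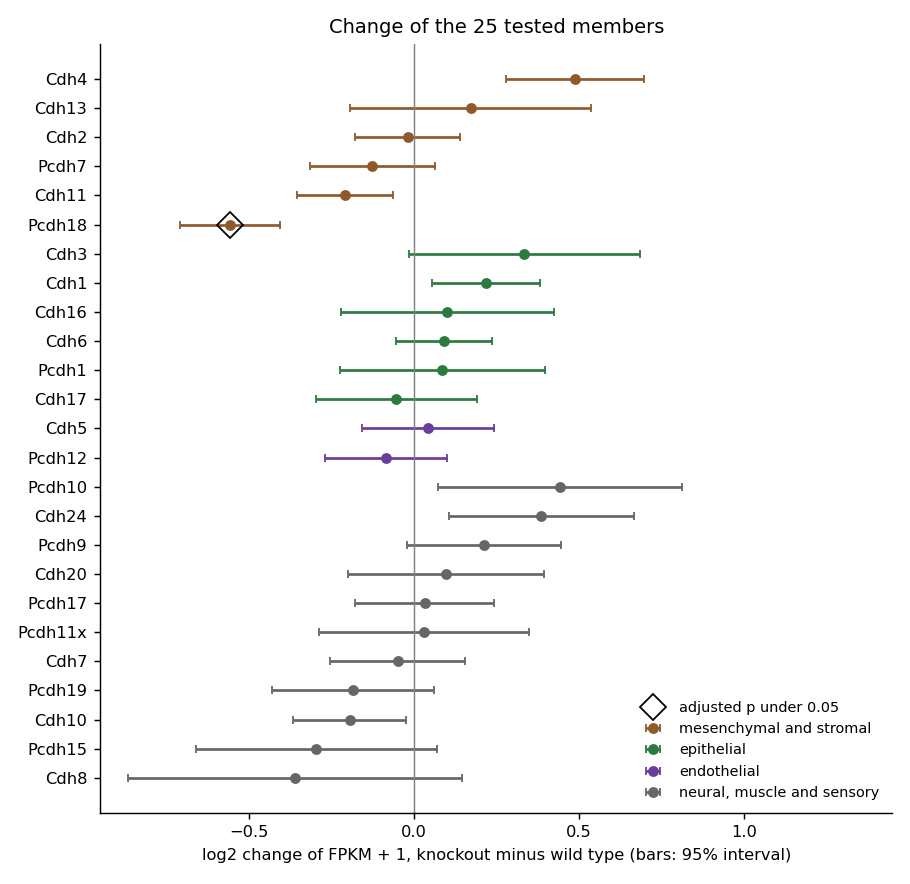
Log2 change of FPKM + 1, knockout minus wild type (horizontal axis), of the 25 tested members, coloured by assigned class of cells, with 95% intervals from limma as bars and a diamond around the called gene. Pcdh18, at -0.56, is the called member, and Cdh4, at 0.49, lies farthest in the other direction.

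The summed level of the family overlapped between genotypes. Summed over all 35 members, knockout kidneys had 411 ± 8.58 FPKM and wild-type kidneys 418 ± 15.2 FPKM (SD, n = 3 each). The sum was uneven, since Cdh11 and Cdh16 together made up 50.6% of it in knockout and 52.1% in wild-type kidneys, while 14 members had a mean under 1 FPKM over all libraries. In knockout kidneys the order by mean FPKM began with Cdh16, Cdh11, Cdh1, Pcdh18, Cdh6, Cdh2, Cdh5, Cdh3 and Cdh4, and in wild-type kidneys with Cdh11, Cdh16, Pcdh18, Cdh1, Cdh2, Cdh6, Cdh5, Cdh3 and Pcdh7. Each genotype thus had 9 members with a mean of at least 10 FPKM. Pcdh18 and Cdh1 stood in opposite order, with no overlap of their values in either genotype: Cdh1 was the higher in all 3 knockout libraries and Pcdh18 in all 3 wild-type libraries. Within each genotype the values of Cdh2 overlapped those of Cdh6 and of Cdh5, so that the order of these genes is not resolved. In knockout kidneys the values of Pcdh18 and of Cdh3 overlapped those of Cdh6, Cdh2 and Cdh5 as well, so their places there are not resolved either. In wild-type kidneys the values of Cdh11 and Cdh16 overlapped, as did those of Cdh3 and Pcdh7.

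**Figure D3:**
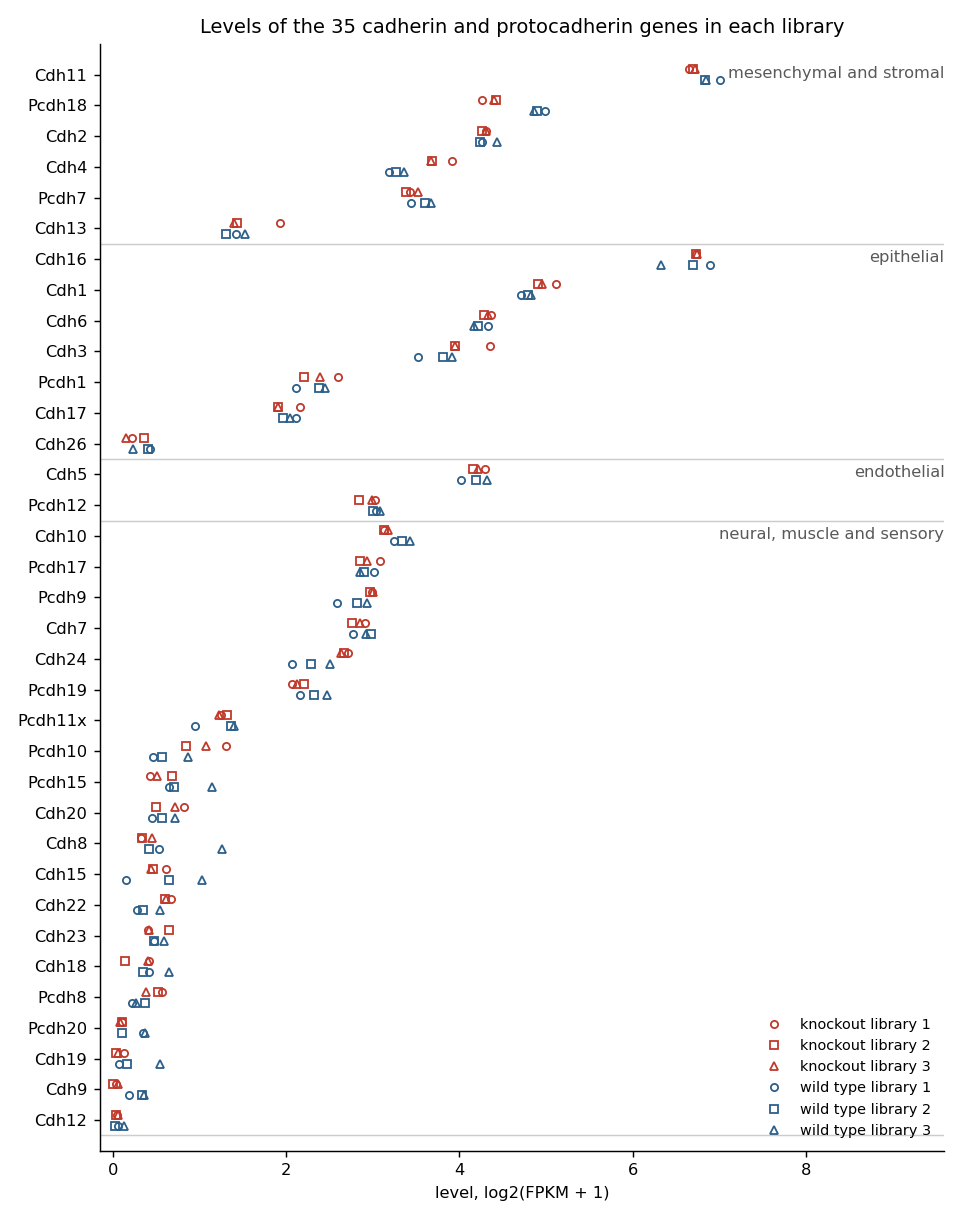
Level on the log2(FPKM + 1) scale (horizontal axis) of the 35 members in the 3 knockout libraries (red) and the 3 wild-type libraries (blue), in blocks by assigned class of cells. Cdh11 and Cdh16 stand above all others, and most genes of the neural, muscle and sensory block lie at the low end, where wild-type library 3 (blue triangle) is often the highest.

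Of the 6 members grouped as mesenchymal and stromal, Pcdh18 was called, Cdh11 lay on the same side of 0 and Cdh4 on the other. Cdh2 and Cdh4 are placed in this class although they are known in forming nephron epithelium too. Cdh11 encodes OB-cadherin, a cadherin of mesenchyme and fibroblasts. It had 99.6, 103 and 104 FPKM in knockout kidneys, against 127, 113 and 114 FPKM in wild-type kidneys. All knockout values were below all wild-type values, at 86.4% of the wild-type mean, but the difference did not pass the test (log2 change -0.21, 95% interval -0.35 to -0.06, limma adjusted p = 0.192). Relative to Cdh11 in the same library, a ratio chosen after the values were seen, Pcdh18 stood at 0.183, 0.198 and 0.193 in knockout kidneys and 0.241, 0.255 and 0.246 in wild-type kidneys. Relative to Col3a1, a collagen of the stroma, it stood at 0.0968, 0.121 and 0.112 in knockout and 0.120, 0.110 and 0.0911 in wild-type kidneys. The first ratio did not overlap between genotypes and the second did.

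Cdh4 encodes R-cadherin, a type I cadherin first described in the retina and also known from the embryonic kidney. It had 14.1, 11.9 and 11.8 FPKM in knockout kidneys, against 8.08, 8.66 and 9.25 FPKM in wild-type kidneys. All 3 knockout libraries were above all 3 wild-type libraries, with knockout library 1 the highest. The means were 12.6 ± 1.34 FPKM in knockout and 8.66 ± 0.581 FPKM in wild-type kidneys (SD, n = 3 each), or 145% of wild type. At a log2 change of 0.49 (95% interval 0.28 to 0.70) its unadjusted p of 7.42e-04 in limma was the second smallest of the family, and its adjusted p of 0.0682 missed the threshold. Cdh2, the gene of N-cadherin, had 18.8, 18.2 and 18.7 FPKM in knockout kidneys and 18.1, 17.8 and 20.6 FPKM in wild-type kidneys. Its groups overlapped, and the interval of its log2 change of -0.02 ran from -0.18 to 0.14. Per unit of Cdh2, Cdh4 stood at 0.752, 0.653 and 0.629 in knockout kidneys and 0.447, 0.486 and 0.449 in wild-type kidneys, a ratio likewise chosen after the values were seen.

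The other mesenchymal members were lower in level and overlapped between genotypes. Pcdh7, a δ1 protocadherin, had 9.45 to 10.5 FPKM in knockout and 9.87 to 11.7 FPKM in wild-type kidneys (log2 change -0.12, limma adjusted p = 0.491), and it overlaps the gene model 4932441J04Rik on the opposite strand. Cdh13, encoding T-cadherin, which lacks a cytoplasmic tail and is held by a lipid anchor, had 1.64 to 2.81 FPKM in knockout and 1.47 to 1.86 FPKM in wild-type kidneys (log2 change 0.17, adjusted p = 0.630). The class as a whole summed to 163 to 167 FPKM in knockout kidneys and 181 to 196 FPKM in wild-type kidneys, without overlap, and Cdh11 made up most of that sum.

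The epithelial members gave no call, although Cdh1 and Cdh3 were higher in every knockout library than in any wild-type library. Cdh1 encodes E-cadherin, the cadherin of the ureteric bud and of maturing tubules. It had 33.8, 29.0 and 30.0 FPKM in knockout kidneys, against 25.1, 26.6 and 27.5 FPKM in wild-type kidneys, or 117% of wild type. The log2 change of 0.22 had a 95% interval of 0.06 to 0.38 and did not pass (limma adjusted p = 0.211). Cdh3, the gene of P-cadherin, had 19.5, 14.5 and 14.4 FPKM in knockout kidneys and 10.4, 13.1 and 14.1 FPKM in wild-type kidneys. Here the groups nearly touched, and the log2 change of 0.34 had an interval of -0.01 to 0.68 (adjusted p = 0.326). Cdh3 and Cdh1 are neighbours on chromosome 8, 46.1 kb apart on the same strand. Knockout library 1 was the highest of all 6 for both, as for 11 of the 25 members tested (44%, against 20.5% of all genes tested). Without it, the log2 change was 0.16 for Cdh1 and 0.20 for Cdh3, and without wild-type library 1 that of Cdh3 was 0.22.

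Cdh16 encodes Ksp-cadherin, a cadherin of kidney tubules and the ureteric tree. It had 105, 105 and 106 FPKM in knockout kidneys, against 118, 102 and 79.0 FPKM in wild-type kidneys. The knockout values lay inside the wild-type range, and the log2 change of 0.10 (95% interval -0.22 to 0.42, limma adjusted p = 0.745) turned to -0.06 without wild-type library 3. The sum of the 10 markers of proximal and distal tubules was 152, 125 and 130 FPKM in knockout kidneys and 192, 162 and 103 FPKM in wild-type kidneys, so that wild-type library 3 was the lowest for the sum as for Cdh16. Cdh6, encoding K-cadherin of early proximal tubule cells, had 19.6, 18.5 and 19.1 FPKM in knockout kidneys and 19.1, 17.5 and 17.0 FPKM in wild-type kidneys, with overlap (log2 change 0.09, 95% interval -0.05 to 0.24). Cdh17, encoding LI-cadherin, had 2.74 to 3.47 FPKM in knockout and 2.90 to 3.34 FPKM in wild-type kidneys, and Pcdh1 had 3.61 to 5.07 FPKM in knockout and 3.34 to 4.45 FPKM in wild-type kidneys. Cdh26 stayed under 0.34 FPKM in every library and was not tested.

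By structure, the 5 type I genes summed to 73.9 to 86.7 FPKM in knockout kidneys and 61.8 to 72.5 FPKM in wild-type kidneys. The 13 type II genes summed to 158 to 162 FPKM in knockout kidneys and 170 to 181 FPKM in wild-type kidneys. Neither pair of ranges overlapped. Cdh11 carried most of the type II sum, and Cdh1, Cdh2, Cdh3 and Cdh4 made up nearly all of the type I sum. Per unit of Cdh2, Cdh1 stood at 1.80, 1.60 and 1.60 in knockout and 1.39, 1.49 and 1.33 in wild-type kidneys, a ratio of E- to N-cadherin message that was chosen after the values were seen and was not tested.

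Markers of the cell types that carry these cadherins differed between the same libraries, and their part in the levels above was not tested. Over all genes tested, 6.94% lay lower and 9.14% higher at an unadjusted p under 0.05 in limma, which is the background for each list. The lists here and below were chosen with earlier results of these data known. Their shares are therefore descriptions, and an excess over the background is no test of a list. Of 12 stromal markers, 2 were called lower and 0 higher, and the median log2 change was -0.39. At an unadjusted p under 0.05, 7 of them were lower (58.3%) and 2 higher (16.7%). Their sum was 628 to 670 FPKM in knockout and 770 to 879 FPKM in wild-type kidneys. The called markers were Ntn1, the secreted guidance protein netrin-1 (25.8% of wild type, log2 change -1.62, limma adjusted p = 0.00138), and Col3a1 (64.8%, log2 change -0.62, adjusted p = 0.0237). Pdgfra, a receptor of stromal fibroblasts, overlapped between genotypes, with 71.3, 64.8 and 73.2 FPKM in knockout and 64.9, 65.2 and 58.8 FPKM in wild-type kidneys, so that Pcdh18 per unit of Pdgfra was 0.255 to 0.315 in knockout and 0.443 to 0.477 in wild-type kidneys. Pdgfra and these ratios were picked after the values were seen. Of 12 mural and smooth muscle markers, 2 were called lower, Acta2 (54.9% of wild type, limma adjusted p = 0.0230) and Tagln (52.8%, adjusted p = 0.0402), and 0 higher. By unadjusted p, 6 were lower (50%) and 1 was higher (8.33%). The median log2 change was -0.23, with 8 genes below 0 and 4 above. Kcnj8 was higher in every knockout library than in any wild-type library (log2 change 0.28). The sum of the list was 163 to 168 FPKM in knockout and 202 to 214 FPKM in wild-type kidneys. Ntn1 kept its call without any 1 library, while Col3a1 lost it when wild-type library 2 or any knockout library was left out (adjusted p up to 0.118), Acta2 without any 1 library but knockout library 3 (up to 0.126) and Tagln without any 1 library (up to 0.15). With all 6 libraries, equal sums, quantile normalization and no trend ended the call of Col3a1 (adjusted p 0.0517 to 0.0570), and no filter, quantile normalization, no robust moderation and no trend that of Tagln (0.0546 to 0.0759). Col3a1 overlaps a gene model on its own strand, and Tagln and Pdgfra overlap models on the opposite strand, whose reads would not be told apart without strand.

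Of the 12 markers of ureteric epithelium, 0 were called, and at an unadjusted p under 0.05 there were 9 higher (75%) and 0 lower. The median log2 change was 0.24, near that of Cdh1. Their sum was 405 to 424 FPKM in knockout kidneys and 346 to 366 FPKM in wild-type kidneys. The smallest p belonged to Calb1, encoding a calcium-binding protein (81.5, 83.3 and 81.2 FPKM in knockout, 68.2, 71.4 and 70.7 FPKM in wild-type kidneys, limma adjusted p = 0.101), and to Hoxb7 (log2 change 0.25, adjusted p = 0.144). Among 12 markers of nephron progenitors and early nephrons, 1 was called higher and 0 lower, and the sum was 198 to 216 FPKM in knockout and 183 to 186 FPKM in wild-type kidneys. The called gene was Wnt4, a signal that drives mesenchyme into epithelium, with 21.0, 19.7 and 19.7 FPKM in knockout kidneys and 10.7, 13.1 and 14.3 FPKM in wild-type kidneys (log2 change 0.63, adjusted p = 0.0402). Its call ended when wild-type library 2 or any knockout library was left out (adjusted p up to 0.166), and with no filter, equal sums, no robust moderation or no trend (0.0628 to 0.0883). Pax8, a transcription factor of the nephron lineage, followed with a log2 change of 0.24 (adjusted p = 0.178). Of the 10 tubule markers 0 were called, and 1 was lower (10%) and 2 were higher (20%) by unadjusted p. The median of this list was -0.26 in log2 change, with 7 genes below 0 and 3 above. The smallest p belonged to Hnf4a and Pou3f3, which were among those above 0 (log2 change 0.35 and 0.16). Of 7 podocyte markers 0 were called, and 1 was lower and 1 higher by unadjusted p (14.3% each).

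**Figure D4:**
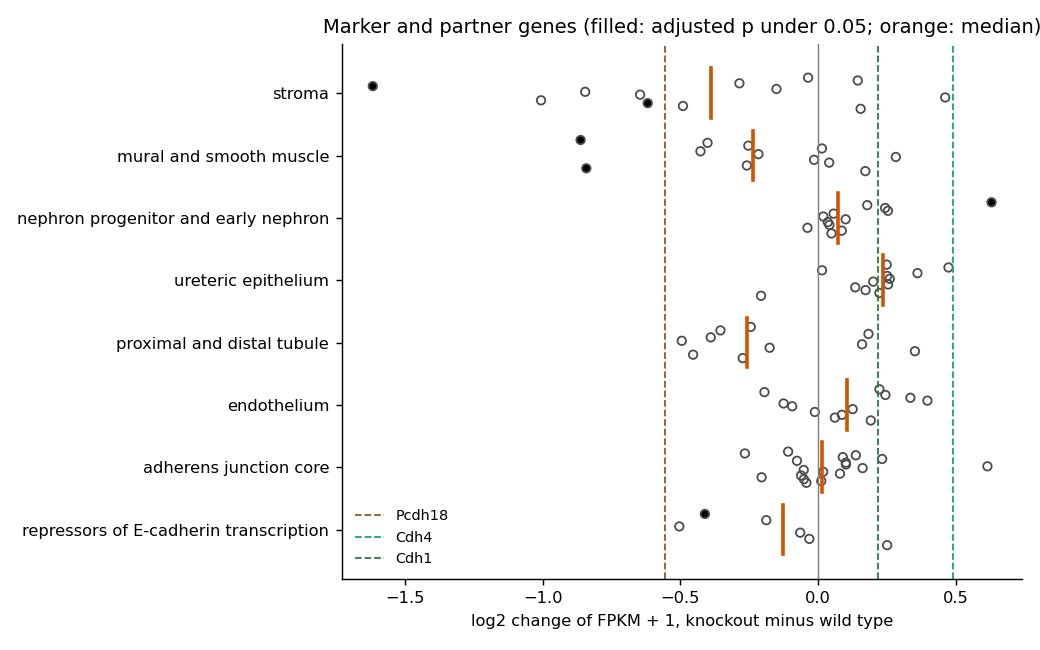
Log2 change of FPKM + 1, knockout minus wild type (horizontal axis), of each tested gene of 8 lists, with the list median in orange, called genes filled, and dashed lines at the changes of Pcdh18, Cdh4 and Cdh1. The medians were -0.39 for stroma and 0.24 for ureteric epithelium, and the line of Cdh1 lies close to the ureteric median.

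The endothelial members overlapped between genotypes. Cdh5 encodes VE-cadherin, the junction cadherin of endothelium. It had 18.6, 16.8 and 17.6 FPKM in knockout kidneys, against 15.2, 17.2 and 19.0 FPKM in wild-type kidneys. The groups overlapped, and the 95% interval of the log2 change of 0.04 ran from -0.16 to 0.24 (limma adjusted p = 0.834). Pcdh12, a protocadherin of endothelium and placenta, had 7.13, 6.16 and 6.97 FPKM in knockout kidneys and 7.17, 7.02 and 7.44 FPKM in wild-type kidneys. Its log2 change of -0.09 had an interval of -0.27 to 0.10. The interval of Cdh5 still allows a rise of the size measured for Cdh1, and that of Pcdh12 a fall of the size measured for Cdh11. Of 12 endothelial markers 0 were called, and 5 were higher (41.7%) and 1 was lower (8.33%) by unadjusted p. Plvap (log2 change 0.40, limma adjusted p = 0.153) and Robo4 (0.34, adjusted p = 0.199) had the smallest p. Of 8 macrophage markers 0 were called and 0 reached an unadjusted p under 0.05 in limma, with Ptprc and Csf1r first by p at log2 changes of -0.20 and -0.19.

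Of the 20 members grouped under nerve, muscle and sensory cells, 11 passed the filter on low values and 0 were called. Cdh10, a type II cadherin of brain and of neurons, had the highest mean level of them. It had 7.74, 7.75 and 8.05 FPKM in knockout kidneys, against 8.50, 9.14 and 9.76 FPKM in wild-type kidneys. All knockout values were below all wild-type values, at 85.9% of wild type (log2 change -0.19, 95% interval -0.37 to -0.02, limma adjusted p = 0.265). Cdh24, a type II cadherin, lay the other way, with 5.57, 5.37 and 5.19 FPKM in knockout kidneys and 3.18, 3.88 and 4.68 FPKM in wild-type kidneys. Its groups did not overlap (log2 change 0.39, interval 0.11 to 0.67, adjusted p = 0.198), and leaving out single libraries gave log2 changes between 0.27 (without wild-type library 1, adjusted p = 0.320) and 0.50 (without wild-type library 3, adjusted p = 0.0822). Pcdh9, a δ1 protocadherin, had 6.93, 6.83 and 7.04 FPKM in knockout kidneys and 5.0, 6.03 and 6.62 FPKM in wild-type kidneys, again without overlap (log2 change 0.21, interval -0.02 to 0.45, and 0.12 without wild-type library 1). Pcdh10, a δ2 protocadherin of the nervous system, had 1.47, 0.790 and 1.11 FPKM in knockout kidneys and 0.373, 0.485 and 0.823 FPKM in wild-type kidneys. The groups overlapped, and the knockout mean stood at 200.2% of wild type. The log2 change was 0.44 (adjusted p = 0.246), or 0.91 with a pseudocount of 0.1 (adjusted p = 0.248), and the gene overlaps the model 1700027H10Rik on the opposite strand.

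The δ2 class shows how unequal its members were. Pcdh18 and Pcdh10 lie on chromosome 3 with opposite signs of change. Pcdh17 had 7.50, 6.23 and 6.62 FPKM in knockout kidneys and 7.10, 6.47 and 6.23 FPKM in wild-type kidneys, with overlap and a log2 change of 0.03. Pcdh19, whose human gene is known for an epilepsy of females, had 3.18 to 3.60 FPKM in knockout and 3.45 to 4.55 FPKM in wild-type kidneys, also with overlap (log2 change -0.18, limma adjusted p = 0.426), and it shares sequence with Gm26851 on the opposite strand, as Cdh8 does with Gm15679. Pcdh8 was below the filter. The class summed to 30.8 to 31.5 FPKM in knockout kidneys and 39.8 to 41.8 FPKM in wild-type kidneys, a gap that is about that of Pcdh18 by itself.

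Most of the remaining neural members were low and had overlapping groups. Cdh7 had 5.77 to 6.53 FPKM in knockout and 5.81 to 6.91 FPKM in wild-type kidneys, and Pcdh11x had 1.34 to 1.48 FPKM in knockout and 0.926 to 1.63 FPKM in wild-type kidneys. Cdh20 had 0.408 to 0.769 FPKM in knockout and 0.371 to 0.647 FPKM in wild-type kidneys. Cdh23, which with Pcdh15 forms the tip links of hair cells, had 0.320 to 0.568 FPKM in knockout and 0.390 to 0.502 FPKM in wild-type kidneys and was not tested. Cdh12 stayed under 0.1 FPKM in every library.

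Among the 10 members below the filter, 4 had no overlap between genotypes (40%), against 9.05% of the 4628 genes below the filter with a value above 0 in some library. A gene at 0 in libraries of each genotype ties there and cannot count as separated, and how many of those genes do so was not counted. Cdh9, a type II cadherin of neurons, had 0.0233, 0 and 0.0439 FPKM in knockout kidneys, against 0.134, 0.265 and 0.280 FPKM in wild-type kidneys. These values stand for about 1.22, 0 and 2.42 fragments in knockout kidneys and 6.07, 13.4 and 13.4 fragments in wild-type kidneys, and the gene overlaps Gm49127 on the opposite strand. Pcdh20 had 0.0751, 0.0715 and 0.0590 FPKM in knockout kidneys and 0.274, 0.0777 and 0.288 FPKM in wild-type kidneys. Cdh22 lay the other way, with 0.595, 0.510 and 0.526 FPKM in knockout kidneys and 0.214, 0.270 and 0.461 FPKM in wild-type kidneys. Pcdh8, which overlaps Gm9748 on the opposite strand, had 0.483, 0.435 and 0.305 FPKM in knockout kidneys and 0.165, 0.289 and 0.20 FPKM in wild-type kidneys. When the filter was dropped and 21527 genes were fitted, the adjusted p in limma was 0.157 for Cdh9, 0.354 for Pcdh20, 0.287 for Cdh22 and 0.282 for Pcdh8. The values of Cdh22 stand for about 24.3 to 32.5 fragments in knockout and 10.2 to 23.0 in wild-type kidneys. Those of Pcdh8 stand for about 21.5 to 32.3 in knockout and 9.59 to 18.7 in wild-type kidneys. Those of Pcdh20 stand for about 4.82 to 5.81 in knockout and 5.82 to 20.4 in wild-type kidneys. The gap of Pcdh20 is thus less than a fragment, and those of Cdh22 and Pcdh8 are a few fragments, so the 40% rests on narrow separations.

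Wild-type library 3 was the highest of all 6 libraries for 9 of the 25 members tested (36%), against 15.1% of all genes tested. With the members below the filter it was highest for 15 of 35 (42.9%). Of the 20 neural, muscle and sensory members, tested or not, it was highest for 11 (55%). The counts out of 35 and 20 include members below the filter, and no share over all genes was computed for such genes. Cdh8, a type II cadherin of neurons, had 0.255, 0.259 and 0.370 FPKM in knockout kidneys, against 0.440, 0.329 and 1.39 FPKM in wild-type kidneys, and it passed the filter through the last of these libraries. Cdh15, encoding M-cadherin of skeletal muscle, had 0.524, 0.380 and 0.359 FPKM in knockout kidneys and 0.110, 0.566 and 1.04 FPKM in wild-type kidneys. Cdh19, a cadherin of Schwann cell precursors, had 0.0882, 0.0252 and 0.0416 FPKM in knockout kidneys and 0.0507, 0.114 and 0.459 FPKM in wild-type kidneys. All 3 genes overlapped between genotypes and stood highest in wild-type library 3. Pcdh15 had 0.339, 0.607 and 0.417 FPKM in knockout kidneys and 0.563, 0.630 and 1.21 FPKM in wild-type kidneys. Cdh18 had 0.332, 0.101 and 0.327 FPKM in knockout kidneys and 0.331, 0.275 and 0.569 FPKM in wild-type kidneys. Pcdh19, at 4.55 FPKM, was, like these genes, highest there.

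The same library was high in markers of nerve and skeletal muscle. The 12 nerve and glia markers summed to 20.1 to 22.8 FPKM in knockout kidneys and to 17.9, 17.3 and 100.4 FPKM in wild-type kidneys. Stmn2 and Tubb3, proteins of neuronal microtubules, had 17.2 and 31.1 FPKM in wild-type library 3, and at most 2.04 and 1.21 FPKM in the others. Of this list, Foxd3 was among the genes at 0 in at least 1 library, 0 genes were called, and Erbb3 (log2 change 0.34) and Stmn2 had the smallest p. The 8 skeletal muscle markers summed to 7.50 to 14.3 FPKM in knockout kidneys and to 9.07, 11.3 and 71.3 FPKM in wild-type kidneys, and all 8 were highest in wild-type library 3, with Tnnt1 and Ttn first by p among its 5 tested genes, of which 0 were called. Myf5, Myod1 and Pax7 were at 0 in at least 1 library. The part of these cells in the levels of Cdh8, Cdh15, Cdh18, Cdh19, Pcdh15 and Pcdh19 was not tested.

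**Figure D5:**
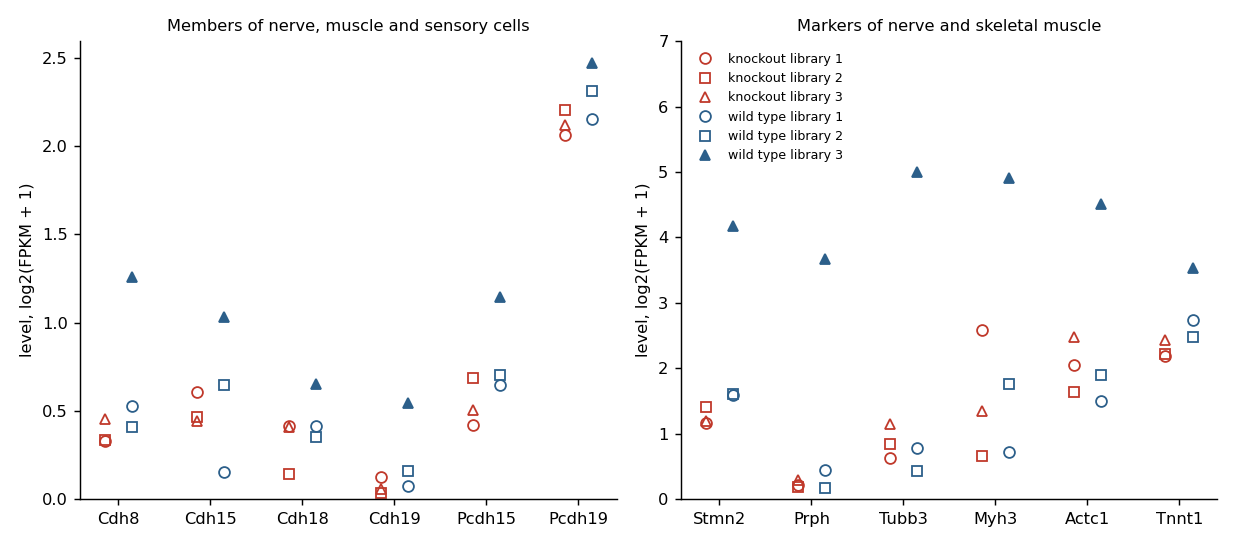
Level on the log2(FPKM + 1) scale (vertical axes) of 6 members (left) and 6 markers of nerve and skeletal muscle (right), all chosen after their values were seen, in each library. Wild-type library 3 (filled triangle) is the highest in all 12 genes, and the other 5 libraries lie below it.

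The partners of cadherins at the junction held no called gene. Of 18 genes of the adherens junction core, 0 were called in limma, and 1 was lower and 1 higher by unadjusted p under 0.05 (5.56% each). The list's median was 0.02 in log2 change. Vcl, encoding vinculin, which links junctions and focal adhesions to actin, had 27.3, 27.7 and 28.2 FPKM in knockout kidneys and 32.1, 34.2 and 34.4 FPKM in wild-type kidneys (adjusted p = 0.0786), and overlaps Ap3m1 on the opposite strand. Jup, encoding plakoglobin, had 18.5, 12.9 and 15.4 FPKM in knockout kidneys and 8.24, 11.4 and 9.84 FPKM in wild-type kidneys (log2 change 0.62, adjusted p = 0.145). Neither gene overlapped between genotypes, and they lay on opposite sides of 0.

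Among 7 genes of transcription factors known to repress E-cadherin, 6 were tested, and 1 was called lower and 0 higher. Of those tested, 3 (50%) lay lower at an unadjusted p under 0.05 in limma. Zeb2, a zinc-finger repressor of mesenchymal cells, had 50.7, 46.1 and 50.2 FPKM in knockout kidneys, against 67.3, 68.4 and 61.0 FPKM in wild-type kidneys, and fell to 74.8% of wild type (log2 change -0.41, limma adjusted p = 0.0430). The call was lost without any 1 library but wild-type library 3 (adjusted p up to 0.176). With all 6 libraries it was lost with no filter, equal sums, quantile normalization, no robust moderation or no trend (adjusted p between 0.0529 and 0.0956). Its relative Zeb1 had 35.4, 34.1 and 34.7 FPKM in knockout and 40.9, 40.1 and 38.1 FPKM in wild-type kidneys (log2 change -0.19, adjusted p = 0.166). Both genes overlap models on the opposite strand. Snai3 was below the filter. Whether these levels bear on that of Cdh1 was not tested.

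The other lists around the family held no called gene. Of 12 effectors of protocadherins, among them the WAVE complex, 2 were lower and 2 higher by unadjusted p in limma, with a median log2 change of 0.10. For Abi2, a WAVE subunit, the log2 change was -0.16 (adjusted p = 0.190), and for Fyn, a kinase at the inner membrane, it was 0.26 (adjusted p = 0.197). Dab1, the adaptor that binds the Pcdh18 tail, had 15.4, 10.8 and 15.6 FPKM in knockout kidneys and 12.1, 9.35 and 9.89 FPKM in wild-type kidneys, with overlapping groups (log2 change 0.38, adjusted p = 0.299), and is named after its value was seen. Of 6 genes of cadherin cleavage and turnover 0 lay lower or higher at an unadjusted p under 0.05. Of 6 desmosomal cadherins, Dsc2 and Dsg2 were tested and had log2 changes of -0.12 and 0.14. Of the 3 seven-pass cadherins, which take part in planar cell polarity, Celsr2 and Celsr1 were tested and had log2 changes of 0.40 and 0.42 (adjusted p = 0.258 and 0.349).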

How the data were processed

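Gene levels were measured by RNA sequencing of whole kidneys at E15.5, in 3 knockout and 3 wild-type libraries grouped by their titles and genotype labels. Per the submitters' processing notes, bcl2fastq 2.17.1.14, Salmon and the build GRCm38 (mm10) were used; no further step is given in the sources used here, nor whether strand was kept. The authors deposited FPKM values for 24749 Ensembl genes, of which 24469 matched a symbol (GENCODE M21). The table holds no counts, so no count model was fitted. Depth was approximated from the steps of low values on genes with 1 transcript, and is approximate.

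The 16899 genes whose mean reached 0.5 FPKM were transformed as log2(FPKM + 1) and fitted with limma 3.58.1 in R 4.3.3, with genotype as the only term and trended, robust moderation. Log2 changes are knockout minus wild type on this scale and understate changes of low genes. Calls required an adjusted p under 0.05 (Benjamini-Hochberg, over all genes tested). The fit was tested on simulated data. The alternatives were a pseudocount of 0.1, no filter, a mean of at least 1 FPKM, equal sums, quantile normalization, no robust moderation, no trend, a replicate block and each library left out. The members and lists were chosen with earlier results of these data known. A member's value is given in every library where it was called, had an unadjusted p under 0.05, did not overlap between genotypes or was among the 3 highest of its site class; of each list, the called genes or the 2 with the smallest p are named. Some genes that this rule names are not reported here. Promoters (250 bases) came from RefSeq on GRCm38.p6.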

Additional observations from a re-analysis of the deposited data

How the results depend on the processing

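Over 14 alternatives, the log2 change of Pcdh18 lay between -0.59 and -0.51, and its call was kept in 11. With the replicate number as a block its adjusted p was 0.109, and 0 members were called lower, against 1 without it. Deviations from the genotype mean had correlations of 0.024, -0.042 and 0.050 between same-numbered libraries, and -0.093 to 0.081 between the others. Deviations from a mean of 3 libraries sum to 0, so these values cannot show whether the numbers pair libraries. The labels do not state a pairing. With the block 30 genes were called lower and 2 higher, of which 24 and 2 were called without it too, against 102 and 22. The block also ended the calls of Wwtr1, Zeb2, Wnt4, Col3a1, Acta2 and Tagln (adjusted p between 0.108 and 0.231). Leaving out single libraries gave between 0 and 1 members called lower, and between 10 and 15 members without overlap against 8, while the share of all genes without overlap was 31.4% to 39.4% in these layouts against 24.3%. With all 6 libraries and equal sums, 6 of 26 members had no overlap (23.1%, against 22.3% of all genes). With no filter it was 12 of 35 members (34.3%, against 21% of all genes). With quantile normalization it was 10 members, and the share of all genes was not computed. Over all genes, 12 were called higher with equal sums and 12 with no trend, against 22. Equal sums moved all genes without overlap to 13.2% lower and 9.06% higher. Cdh4 was called under no alternative (adjusted p between 0.0558 and 0.234, log2 change between 0.41 and 0.53). Of 209 pairs of a member with values in every library and an alternative, 201 kept their direction and side of the threshold and 5 changed sign, all by leaving out 1 library and all in members near 0. Leaving out single libraries gave log2 changes of -0.034 to 0.12 for Cdh5, -0.055 to 0.23 for Cdh16, -0.055 to 0.044 for Cdh2 and -0.033 to 0.084 for Pcdh17. The cause was not tested. Cdh9 and Pcdh20 rest on at most about 20.4 fragments a library, which limits the precision of their values.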
